A study of Rattus norvegicus with 38 samples.

Results

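The microRNAs miR-96, miR-182 and miR-183 form one cluster on rat chromosome 4, and their levels were followed here in the livers of rats fed 8 different chemicals. The members were taken by their names on the array, rno-miR-96, rno-miR-182 and rno-miR-183, with every probe designed against them. They are 3 of the 350 rat miRNAs on the array and account for 7 of its 938 probes. Liver RNA from 38 male Fischer F344 rats was hybridised to Agilent one-colour miRNA arrays, 1 array per animal. The rats arrived at 8 weeks of age and received powdered diet for 90 days, with 5 animals to a cage. Control rats (n = 5) ate the diet alone. Treated rats ate the same diet with Phenobarbital at 1000 ppm (n = 3), Benzophenone at 1250 ppm (n = 5), Diethylhexylphthalate at 12000 ppm (n = 4) or Monuron at 1500 ppm (n = 4). The remaining diets contained Methapyrilene HCl at 250 ppm (n = 4), Diethylthiourea at 2500 ppm (n = 4), 2-acetylaminofluorene at 40 ppm (n = 5) or Chlorendic Acid at 1250 ppm (n = 4). Doses were chosen by the submitters as carcinogenic or maximum tolerated doses, 1 per chemical, so no dose response can be read and the chemicals were not matched for dose.

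A miRNA is a short RNA that directs the silencing machinery to messenger RNAs, mainly by pairing through bases 2 to 8 at its 5′ end, the seed. The miR-183 cluster is transcribed as one unit and then cut into 3 mature miRNAs. It is best known from sensory cells of the inner ear and retina, where changes in the seed of miR-96 cause hearing loss in mouse and human. In human tumours, hepatocellular carcinoma among them, raised levels of these miRNAs have been described, and human studies name the transcription factor FOXO1 among the targets of miR-96 and miR-182. Phenobarbital is a barbiturate that activates the nuclear receptor CAR, and Diethylhexylphthalate is a plasticizer that activates PPAR-alpha. Benzophenone is an ultraviolet absorber, Monuron a phenylurea herbicide, Methapyrilene HCl a withdrawn antihistamine, and 2-acetylaminofluorene an aromatic amine that forms DNA adducts.

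The mature sequences are shown because the seeds separate the members. They come from RefSeq (assembly GRCr8), read 5′ to 3′, and capitals mark the seed.
miR-96: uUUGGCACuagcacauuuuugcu
miR-182: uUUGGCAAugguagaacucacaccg
miR-183: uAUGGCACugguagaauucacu
miR-96 and miR-182 share bases 2 to 7 and differ in the seed by C8A, while miR-96 and miR-183 differ there by U2A, counted from the 5′ end with the base of miR-96 first. miR-182 and miR-183 differ at both of these positions (U2A and A8C, the base of miR-182 first), although they share an 8-base stretch outside the seed, ugguagaa, from base 9 of each. The seed matches in a target, written as DNA, are therefore GTGCCAA for miR-96, TTGCCAA for miR-182 and GTGCCAT for miR-183. Among the 724 mature rat miRNAs of the RefSeq table, no miRNA outside the cluster shared bases 2 to 7 with any member. The array names carry no arm, and the 5p forms of RefSeq are printed for miR-96 and miR-183.

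All 3 hairpins lie on the minus strand of chromosome 4 in GRCr8 within 3908 bases. The order of transcription is Mir183 (chr4:59756044-59756153), Mir96 (chr4:59755841-59755946) and Mir182 (chr4:59752246-59752307). Only 97 bases separate the first pair, and 3533 bases separate Mir96 from Mir182. No protein-coding gene overlaps the stretch. The nearest are Nrf1, which lies 14079 bases away on the side of Mir182, and Ube2h, which lies 45948 bases away on the side of Mir183. The miRNA gene Mir3553 is annotated on the opposite strand over Mir183, and it has no probe on the array.

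Signals were averaged over the spots of a probe, divided by the array's 75th percentile over 137 probes detected on every array, and given a floor before log2 was taken. A level of -5.50 is this floor, which equals 16.7 signal units on the median array. A probe counted as detected where over 50% of its spots were well above background. At least 90 miRNAs were detected on each array (median 125), and 129 were tested. The hepatocyte miRNA miR-122 had a level of 6.40 ± 0.24 in control liver (SD, n = 5), so the tissue label was borne out by its defining marker. The number of arrays and, for dim probes, the background limit the precision. These are whole-liver samples, in which fewer cells of a type and less RNA per cell cannot be told apart.

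The cluster was dim, and only in part measurable. Both probes of miR-96 were detected on 33 of 38 arrays. miR-182 was detected on 16 of 38 arrays, by 1 of its 3 probes. Neither probe of miR-183 was detected on any array. miR-96 and miR-182 entered the test, while miR-183 lay at the floor on all 38 arrays and has no test. miR-182 passed the detection filter only through the groups fed Phenobarbital and Benzophenone, so its passing is no evidence of a difference. The F test over all 8 differences from control was passed by 58 of the 129 miRNAs (45%). By the size of the F statistic miR-96 ranked 2 (F = 37.3, adjusted p = 2.62e-12) and miR-182 ranked 4 (F = 21.6, adjusted p = 2.38e-09). Groups of miR-182 that lay wholly at the floor have no spread, which lowers its fitted error, so its F and p-values are uncertain.

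miR-96 was highest in rats fed Phenobarbital. The 5 control animals had levels of -5.17, -5.07, -4.66, -4.97 and -5.01, with the first 2 not detected. The 3 Phenobarbital animals had levels of -2.86, -3.02 and -3.01. All 3 lay far above every control animal. The difference was 2.01 ± 0.17 log2 units (SE, n = 3 against 5, adjusted p = 3.74e-11), or 4.03-fold with a 95% interval from 3.17 to 5.12. In array units the signal was 89.7 to 119 with Phenobarbital and 14.5 to 33.7 in control.

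**Figure D1:**
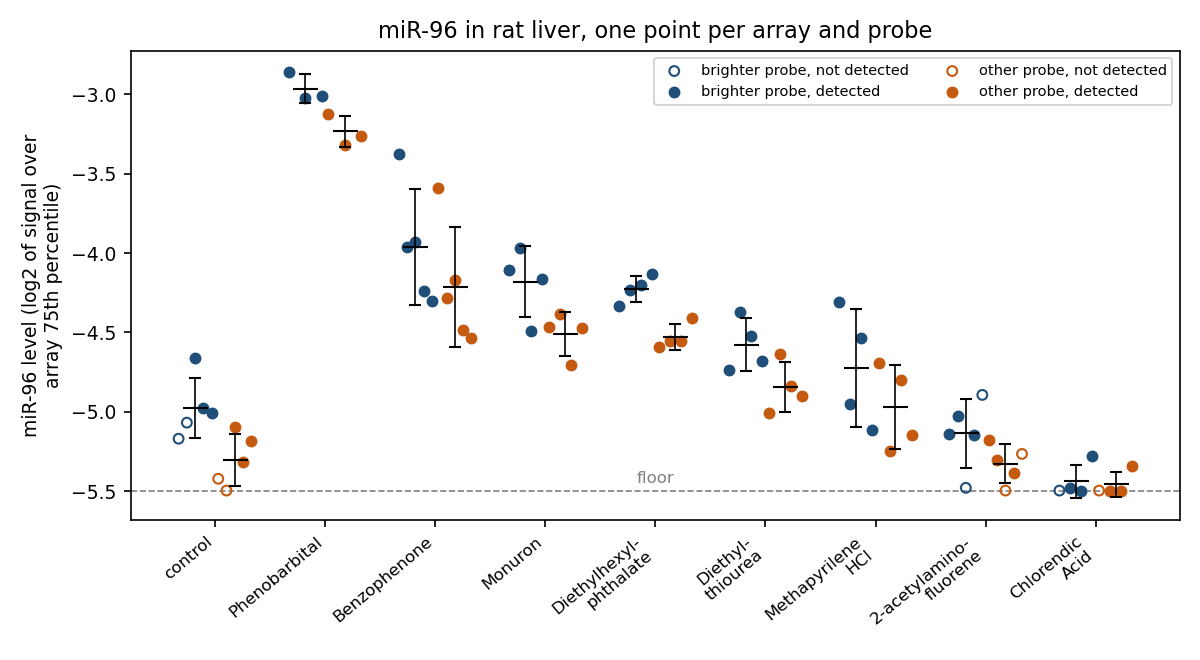
Levels of miR-96 (log2 of signal over the array's 75th percentile, vertical axis) in 9 diet groups, with 1 point per array for each of its 2 probes; open points are arrays on which that probe was not detected, black bars are means ± SD, and the dashed line is the floor at -5.50. The 3 Phenobarbital arrays stand above all others on both probes, and the Chlorendic Acid arrays lie at or near the floor.

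Benzophenone, Monuron and Diethylhexylphthalate raised miR-96 to smaller and similar levels. With Benzophenone the levels were -3.37, -3.96, -3.93, -4.24 and -4.30, a difference from control of 1.02 ± 0.15 (adjusted p = 1.03e-05, 2.02-fold). Replicate 1 was the highest of the 5, and none overlapped with control. With Monuron the levels were -4.11, -3.97, -4.49 and -4.16, a difference of 0.79 ± 0.16 (adjusted p = 0.000647, 1.73-fold). With Diethylhexylphthalate they were -4.34, -4.23, -4.20 and -4.13, a difference of 0.75 ± 0.16 (adjusted p = 0.00112, 1.68-fold). Each of these 13 animals was above the highest control animal, at -4.66.

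The other 4 diets left miR-96 near the control level or below it. With Diethylthiourea the levels were -4.74, -4.37, -4.52 and -4.68 and the difference was 0.40 ± 0.16, which did not pass (unadjusted p = 0.0153, adjusted p = 0.675). All 4 animals lay above the control mean, and 2 of them above every control animal, or all 4 on the dimmer miR-96 probe. With Methapyrilene HCl the levels were widely spread (-4.31, -4.95, -4.53 and -5.11) and overlapped control (difference 0.25, 95% interval -0.068 to 0.57, adjusted p = 0.413). With 2-acetylaminofluorene they were -5.14, -5.02, -5.48, -5.14 and -4.89 (difference -0.16, 95% interval -0.46 to 0.14, adjusted p = 0.556). This value moved with the scaling. It was -0.43 with the 75th percentile taken over all probes (adjusted p = 0.0281) and -0.42 after quantile normalization (adjusted p = 0.0443). The first of these scalings moved the median of all tested miRNAs by -0.33, and quantile normalization moved it by -0.051.

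Chlorendic Acid was the only diet with a lower call for miR-96. The levels were -5.50, -5.48, -5.50 and -5.28, below all 5 control animals, and the fitted difference was -0.46 ± 0.16 (adjusted p = 0.0243). Replicates 1 and 3 were at the floor, so the size is limited by it. Before scaling, the signals of 15.1 to 20.6 units overlapped the 14.5 to 33.7 units of control. The arrays' 75th percentiles ran from 801 to 1068 units with Chlorendic Acid and from 486 to 1060 in control, and the part of this in the result was not tested. The call did not pass without control replicate 3 or without Chlorendic Acid replicate 1, 2 or 3 (difference -0.45 to -0.38, adjusted p up to 0.0817), nor for the mean of both probes (-0.32, adjusted p = 0.109).

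These calls stand against a low background for most diets. The share of the 129 miRNAs called higher was 3.88% with Phenobarbital, 3.1% with Benzophenone, 3.1% with Monuron and 10.9% with Diethylhexylphthalate, and 9.3% were called lower with Chlorendic Acid. Calls in either direction made up 4.65% with Methapyrilene HCl and 11.6% with 2-acetylaminofluorene. With Diethylthiourea limma called 0% of the 129, with 8 miRNAs at an unadjusted p under 0.05. Every treated array exceeded every control array for 9.3% of the miRNAs with Phenobarbital, 3.1% with Benzophenone, 5.43% with Monuron and 14.7% with Diethylhexylphthalate. Every Chlorendic Acid array was below every control array for 5.43%. All 8 comparisons share the same 5 control arrays and are not independent of each other.

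miR-182, like miR-96, was highest with Phenobarbital and next highest with Benzophenone, although the floored levels of the 2 did not coincide in every liver. In Diethylhexylphthalate replicate 3, Monuron replicate 3, Diethylthiourea replicate 3 and Methapyrilene HCl replicates 1 and 3, miR-96 was above all control animals and miR-182 was at the floor. The floor made most of this mismatch. Without it, the miR-182 signal was 1.90%, 2.16%, 1.49%, 1.88% and 2.08% of the 75th percentile in these livers, in the order named. All but Diethylthiourea replicate 3 were above the highest control animal, at 1.67%. In control miR-182 was not detected in any of the 5 animals (2.87, 3.54, 12.7, 14.01 and 8.09 units), and all 5 lay at the floor. With Phenobarbital it was detected in all 3 animals, at 47.9, 39.6 and 41.3 units and levels of -4.18, -4.23 and -4.13. The difference against the floor was 1.32 ± 0.13 (adjusted p = 7.55e-10). Groups wholly at the floor have no spread, which lowers the fitted error, so this SE and p-value may be too small. Without the floor, the exact permutation p of the brightest miR-182 probe was 0.0357, the smallest that 3 against 5 animals can give. Adjusted over 56 such tests, that permutation p was 0.0909, a value limited by the group sizes. Set against the dimmest detected probe of each control array, or its own signal where that was higher, miR-182 was at least 2.62-fold higher with Phenobarbital. The 3 Phenobarbital animals did not overlap with those of any other diet.

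With Benzophenone miR-182 was detected in 5 of 5 animals at levels of -4.60, -5.07, -4.61, -5.36 and -4.93, at least 1.57-fold above control (difference 0.58 ± 0.11, adjusted p = 0.000421). This call was lost with the total gene signal (0.28, adjusted p = 0.109) and in a fit of the 2 groups alone (adjusted p = 0.0874). With Diethylhexylphthalate it was detected in 2 of 4 animals, and replicate 3 was at the floor while the others had levels of -5.10, -5.07 and -4.86. The difference was 0.36 ± 0.12 (adjusted p = 0.0343). No least fold is given, since the signal of replicate 3 was raised to the floor. This call was lost without any 1 of 6 arrays, namely control replicates 2, 3 and 5 and Diethylhexylphthalate replicates 1, 2 and 4, where the difference was 0.27 to 0.36 and the adjusted p up to 0.169. With Monuron it was detected in 3 of 4 animals at levels of -5.31, -5.08 and -4.91, with replicate 3 at the floor, and the difference of 0.30 ± 0.12 did not pass (adjusted p = 0.172). With a lower floor, at the 1st percentile of detected values, the Monuron difference was 0.60 (adjusted p = 0.00539), so the floor decides that call.

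In the remaining diets miR-182 stayed close to the limit of detection. Diethylthiourea replicate 2 had a level of -5.35, and the other 3 animals of that group were at the floor. With Methapyrilene HCl the probe was detected in 2 of 4 animals, at 17.2 and 22.2 units, which after scaling still fell below the floor. With 2-acetylaminofluorene and Chlorendic Acid it was detected in no animal. Without the floor, the scaled signal was 1.04% of the 75th percentile in control on average, 5.53% with Phenobarbital, 3.39% with Benzophenone, 2.81% with Diethylhexylphthalate and 2.74% with Monuron. In each of these 4 diets every animal was above every control animal, including those at the floor in the fit. Without the floor, that held for 3.62% of all 938 probes with Phenobarbital, 1.39% with Benzophenone, 4.58% with Diethylhexylphthalate and 2.35% with Monuron. The other 4 diets overlapped control, at 1.93% with Diethylthiourea, 1.72% with Methapyrilene HCl, 1.49% with 2-acetylaminofluorene and 1.06% with Chlorendic Acid.

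**Figure D2:**
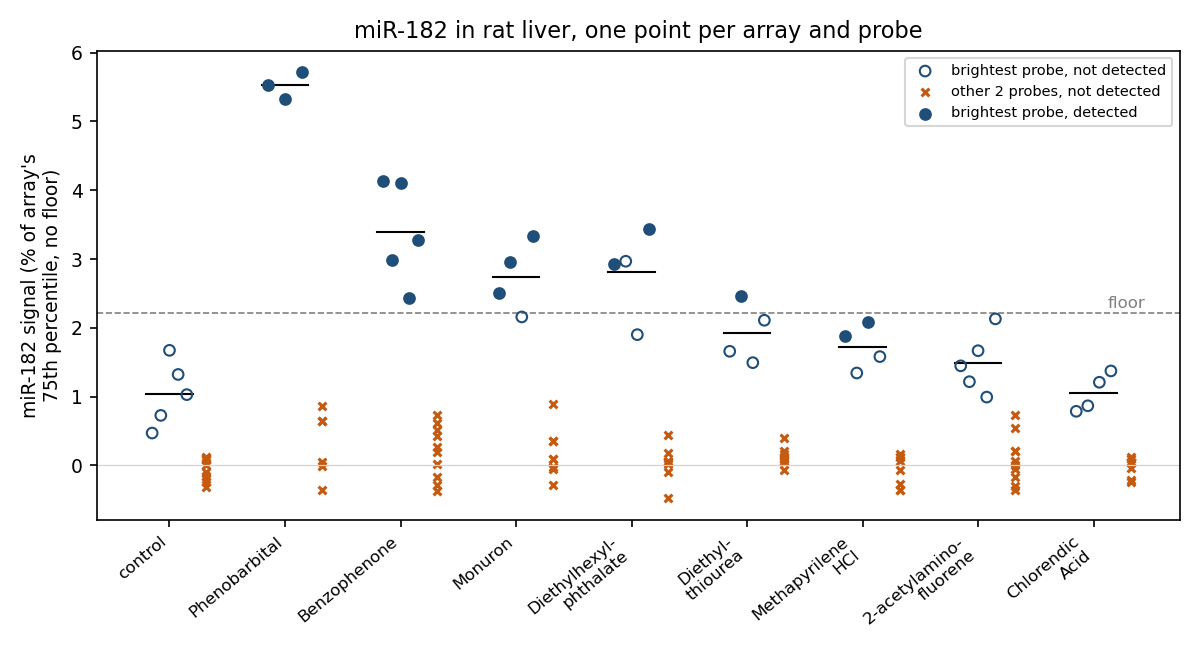
Scaled signal of miR-182 without the floor (percent of the array's 75th percentile, vertical axis) in 9 diet groups; circles are the brightest probe, filled where detected, black lines are its group means, and crosses are the other 2 probes, never detected. The 3 Phenobarbital arrays lie between 5.33% and 5.72%, and the highest control array is at 1.67%.

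miR-183 could not be quantified. Its 2 probes gave -5.11 to 9.83 units over all arrays, below the 11.6 to 23.8 units of the dimmest detected probe on each array. The brighter of them read 8.69, 7.46 and 9.32 units with Phenobarbital and 2.84, -0.81, 1.13, 1.90 and 3.05 units in control. The Phenobarbital animals were thus above all control animals, at signals that were not well above background. The other probe showed the same order, with 5.41, 4.09 and 9.83 units against -1.24 to 1.24. On these Phenobarbital arrays the 95th percentile of the negative control spots was 5.82, 7.54 and 8.53 units, in the same sequence. Over all arrays it was 4.25 to 9.85 units. No fold is given, since both groups were below detection.

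On the scaled signals, the exact permutation p of both miR-183 probes was 0.0357 with Phenobarbital, the smallest that 3 against 5 animals can give. Over the 56 such tests of the 7 probes and 8 diets, 29 had an unadjusted p under 0.05 and 0 had an adjusted p under 0.05, with 0.0909 for Phenobarbital. A p of 0.0357 could pass this adjustment only if most of the 56 tests had one as small, so the adjusted value cannot decide there. The order, with every treated array above every control array, was not particular to Phenobarbital or to the cluster. Both probes were also above all control arrays with Chlorendic Acid, and the dimmer probe with Diethylhexylphthalate. Among the 621 probes that were never detected, the share above every control array was 2.25% with Phenobarbital, 4.83% with Chlorendic Acid and 1.13% with Diethylhexylphthalate.

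**Figure D3:**
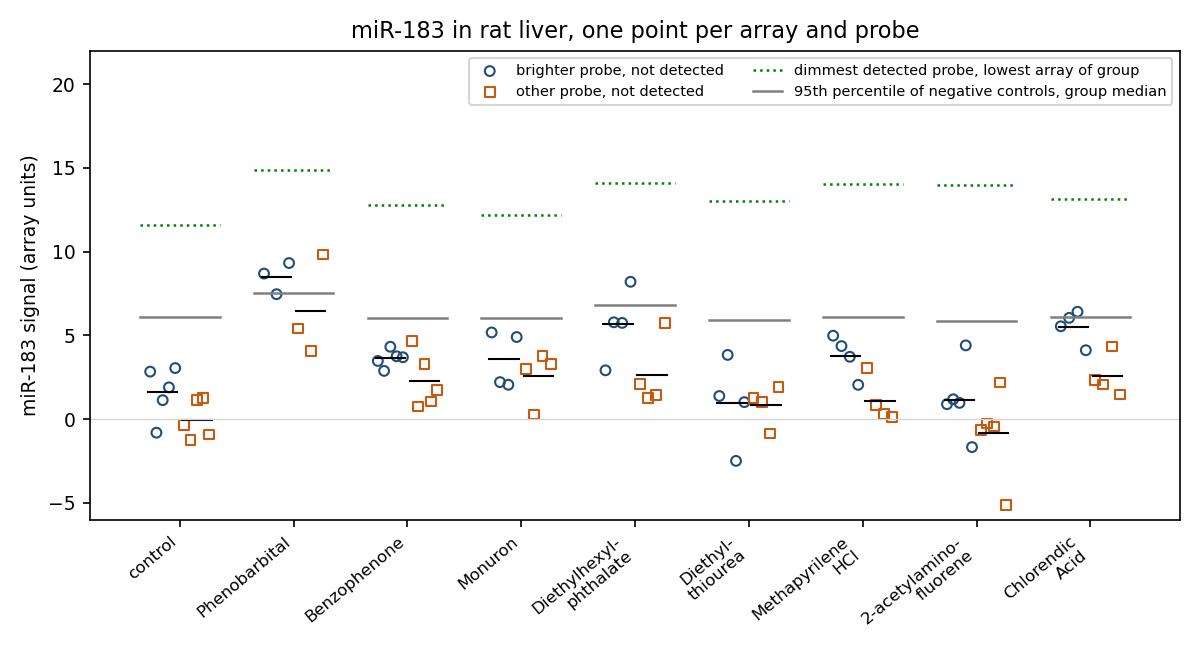
Signal of both miR-183 probes (array units before scaling, vertical axis) in 9 diet groups, with 1 point per array and probe; black lines are group means, grey lines the 95th percentile of negative control spots (group median), and green dotted lines the dimmest detected probe on the lowest array of the group. Every point lies below the green line of its group.

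The 2 probes of miR-96 gave the same calls, apart from Chlorendic Acid. The brighter exceeded the other by 0.24 ± 0.12 log2 units (SD, n = 38) and on 36 of 38 arrays. Fitted over all 229 tested probes, the dimmer probe differed from control by 2.07 with Phenobarbital, 1.09 with Benzophenone, 0.79 with Monuron and 0.77 with Diethylhexylphthalate (adjusted p = 5.54e-13, 1.80e-07, 8.01e-05 and 9.86e-05). In that fit both miR-96 probes and the brightest miR-182 probe were called higher with Phenobarbital, Benzophenone and Diethylhexylphthalate, and both miR-96 probes with Monuron. The share of all probes called higher was 3.49%, 2.62%, 9.17% and 2.62% in these 4 diets. With Chlorendic Acid, where 9.61% of probes were called lower, the dimmer miR-96 probe differed by -0.16 and did not pass (adjusted p = 0.386). On that probe 3 of 4 Chlorendic Acid arrays were at the floor. With Diethylthiourea all 4 arrays were above every control array on the dimmer probe (-5.01 to -4.64, highest control -5.10), and 2 of 4 on the brighter. Neither probe passed (0.46 and 0.40, adjusted p = 0.410 and 0.769). Without the floor, 0.853% of all 938 probes had every Diethylthiourea array above every control array.

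Of the other miR-182 probes, 1 stayed near 0 units in every group. The other averaged 5.53 units with Phenobarbital and 3.53 with Benzophenone against -0.29 in control, with every animal of both diets above every control animal, but it was never detected. The same order was found for 2.25% of the 621 undetected probes with Phenobarbital and 0.644% with Benzophenone. The size of the miR-182 differences therefore rests on a single probe.

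Diets were then compared with each other, over 28 pairs with p-values adjusted over 129 miRNAs and all pairs. miR-96 differed in 20 of the 28 pairs and miR-182 in 12, with both groups of miR-182 at the floor in 3 pairs. Over all miRNAs, 10.9% of the comparisons were called. Phenobarbital was higher than each of the other 7 chemicals for both members, against 6.76% of all miRNAs in those pairs. Against Benzophenone, the next highest, the difference was 0.996 for miR-96 (95% interval 0.65 to 1.34, adjusted p = 8.72e-05) and 0.73 for miR-182 (95% interval 0.473 to 0.997, adjusted p = 0.000124). The miR-182 calls, interval and p-value are uncertain, since groups wholly at the floor lower its fitted error. Its passing the detection filter also rests on the Phenobarbital and Benzophenone groups alone.

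In descending order of the mean, miR-96 ran from Phenobarbital (-2.96 ± 0.090, SD) through Benzophenone (-3.96 ± 0.37), Monuron (-4.18 ± 0.22), Diethylhexylphthalate (-4.23 ± 0.084), Diethylthiourea (-4.58 ± 0.17) and Methapyrilene HCl (-4.73 ± 0.37) to control (-4.98 ± 0.19), 2-acetylaminofluorene (-5.14 ± 0.22) and Chlorendic Acid (-5.44 ± 0.11). After the step from Phenobarbital to Benzophenone, no pair of neighbours in this order differed beyond the test. Benzophenone and Monuron differed by 0.22 (95% interval -0.096 to 0.54) and Monuron and Diethylhexylphthalate by 0.045 (-0.29 to 0.38). Diethylhexylphthalate and Diethylthiourea did not overlap, but their difference of 0.35 did not pass (adjusted p = 0.186). For miR-182 the order was Phenobarbital, Benzophenone, Diethylhexylphthalate, Monuron and Diethylthiourea, and the other 4 groups were level at the floor.

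The arrays were spread over 6 slides, which were tested as batches. Control animals were on 3 of them, and no slide held control together with Monuron or Methapyrilene HCl. Within these 3 slides, miR-96 was higher with Phenobarbital by 1.96, 2.01 and 2.16 and miR-182 by 1.32, 1.27 and 1.37, from 1 treated array per slide. The only slide with Benzophenone and control gave 1.44 for miR-96 and 0.90 for miR-182. Diethylhexylphthalate gave 0.80 and 1.04 for miR-96 and 0.42 and 0.63 for miR-182, again from 1 treated array per slide. With Diethylthiourea miR-96 differed by 0.08 and 0.65, with 2-acetylaminofluorene by -0.11 and with Chlorendic Acid by -0.68 and -0.21. When slide entered the model as a block, miR-96 differed by 2.01 with Phenobarbital, 1.16 with Benzophenone, 0.91 with Diethylhexylphthalate, 0.93 with Monuron and -0.48 with Chlorendic Acid, and all of these were called. So were the miR-182 differences with Phenobarbital, Benzophenone and Diethylhexylphthalate (1.31, 0.75 and 0.48).

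The relation between the 2 measurable members within a diet depended on the arrays and settings used. After group means were removed, miR-96 and miR-182 correlated over the 38 arrays with r = 0.42 (permutation p = 0.0439) and rho = 0.39 (permutation p = 0.0225). Benzophenone replicate 1 and Methapyrilene HCl replicate 1 lay farthest from their group means in miR-96. Without them r was 0.31 and did not pass (permutation p = 0.0935, rho = 0.26, permutation p = 0.173), a set chosen after the values were seen. With the 75th percentile taken over all probes r was also 0.31 (permutation p = 0.201). With the lower floor r was 0.45 (permutation p = 0.00824) and rho 0.44 (permutation p = 0.011). The miR-96 and miR-182 values come from the same array and share its scaling, and many miR-182 values are at the floor. Among 15 arrays with both members detected, taken from groups with 2 or more such arrays, r was 0.59 (permutation p = 0.165). Those of them fed Methapyrilene HCl were still at the floor of miR-182.

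**Figure D4:**
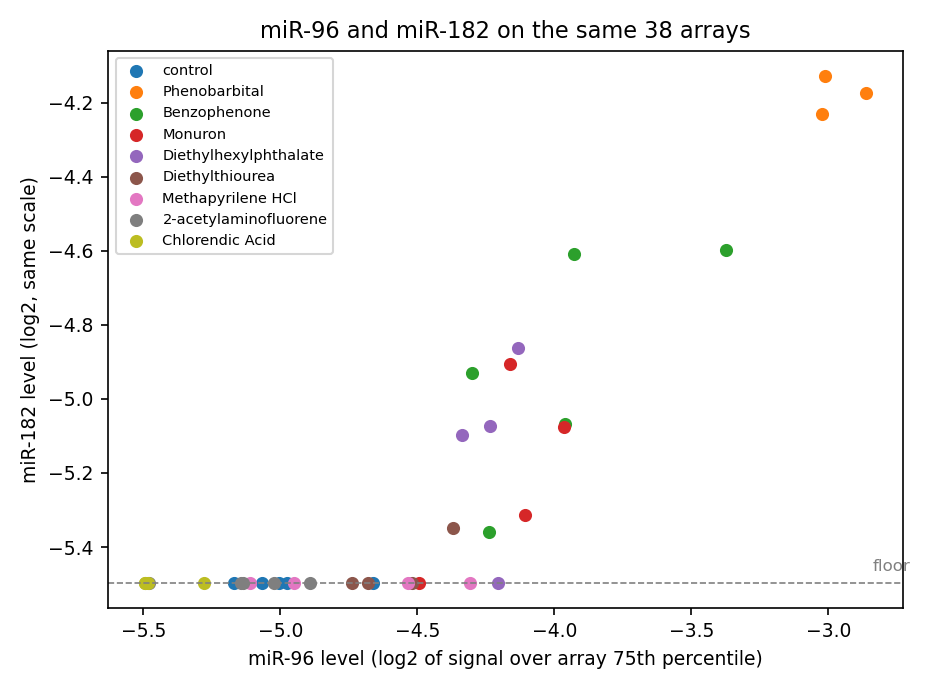
Level of miR-182 (vertical axis) against that of miR-96 (horizontal axis), both as log2 of signal over the array's 75th percentile, for 38 arrays coloured by diet; the dashed line is the floor of miR-182. miR-182 rises above the floor only on arrays with a miR-96 level of -4.37 or more, and the 3 Phenobarbital arrays are highest on both axes.

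Over the means of the 9 groups, miR-182 was the miRNA whose pattern was most like that of miR-96 (r = 0.94 over 9 groups, and 0.86 over 8 without Phenobarbital). Next came miR-29c (0.88, and 0.82 without Phenobarbital), miR-322 (0.83 and 0.58), miR-194 (0.75 and 0.68) and miR-29a (0.70 and 0.64). The median over the 128 miRNAs compared was 0.066. For miR-182, after miR-96, the most alike were miR-29c (0.80 and 0.70), miR-322 (0.76 and 0.22), miR-429 (0.75 and -0.0029) and miR-200b (0.74 and 0.32). Likeness in shape was not likeness in size: miR-29c differed from control by 0.45 with Phenobarbital (adjusted p = 0.285) and 0.41 with Diethylhexylphthalate (adjusted p = 0.128). The likeness of miR-182 to miR-429 rested on the Phenobarbital group.

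The epithelial miR-200 family, which in liver marks bile duct cells more than hepatocytes, was called higher together with the cluster in some diets and not in others. Of its 5 members 3 were tested (miR-200a, miR-200b and miR-429). All 5 miRNAs called higher with Phenobarbital were the 2 measurable cluster members and these 3. With Benzophenone the 4 called higher were the same 2 cluster members with miR-200a and miR-200b. With Diethylhexylphthalate the 14 called higher held both cluster members, miR-200a and miR-200b, and with Monuron the 4 held miR-96 and none of the family. In these 4 diets the median family difference was 2.08, 1.01, 0.69 and 0.11, beside a median of all miRNAs of 0.084, -0.040, 0.0094 and 0.061. The summed signal of the family was 7.95% to 12.8% of the 75th percentile in control, 35.5% to 40.5% with Phenobarbital and 8.53% to 16.5% with Monuron. The part of bile duct or other epithelial cells in the miR-96 and miR-182 values was not tested.

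The reverse was seen with Methapyrilene HCl, 2-acetylaminofluorene and Chlorendic Acid. Of the 3 tested members of the family 2, 3 and 2 were called higher there, while neither cluster member was. Over all 129 miRNAs, 3.88%, 9.3% and 20.2% were called higher in these diets. miR-200b differed by 0.83, 1.14 and 1.12 (adjusted p = 0.0273, 0.000281 and 0.000354). With Methapyrilene HCl the family's summed signal was 12.2% to 19.5%, which overlapped control. With Chlorendic Acid it was 16.7% to 23.7%, and with 2-acetylaminofluorene it was 15.5% to 32.8%, both above all control animals. miR-96 was called lower with Chlorendic Acid and overlapped control with 2-acetylaminofluorene. Within the family, miR-141 was detected on no array.

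The difference between miR-96 and miR-200b within each array is given as a description, since it was chosen after these values were seen. Relative to control it changed by -1.30 with 2-acetylaminofluorene and by -1.58 with Chlorendic Acid, where miR-96 was at the floor on 2 of 4 arrays. It changed by -0.23 with Phenobarbital, -0.22 with Benzophenone, -0.17 with Diethylhexylphthalate and -0.58 with Methapyrilene HCl. With Monuron and Diethylthiourea the change was 0.48 and 0.41. Against miR-200a it was 0.68 with Monuron, 0.55 with Diethylthiourea and -0.072 with Phenobarbital. A dimmer miR-200a probe gave smaller differences from control than the one used (1.25 in place of 2.08 with Phenobarbital), so the values against miR-200a are uncertain.

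**Figure D5:**
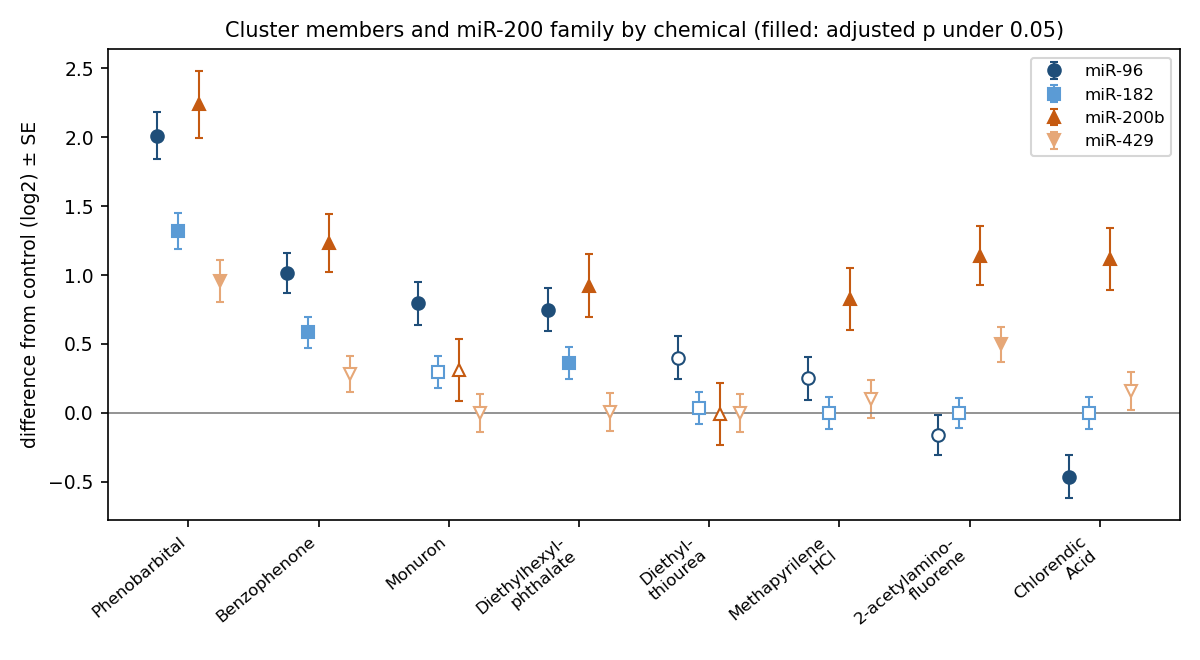
Difference from control (log2, vertical axis, ± SE) of miR-96, miR-182, miR-200b and miR-429 for 8 diets; filled symbols have an adjusted p under 0.05. miR-96 and miR-200b lie side by side with Phenobarbital (2.01 and 2.24) and apart with Chlorendic Acid (-0.46 and 1.12).

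Other miRNAs reported to repress FOXO factors, mostly in human or mouse cells, were listed beside miR-96 and miR-182 (miR-9, miR-27a, miR-132, miR-155, miR-212 and miR-223). Of these 6, 5 were on the array and 3 were tested (miR-27a, miR-212 and miR-223). None was called by limma in any of the 8 diets, with 2 of the 24 comparisons at an unadjusted p under 0.05. With Phenobarbital their differences were 0.16 for miR-27a, -0.44 for miR-212 and -0.069 for miR-223 (adjusted p = 0.714, 0.677 and 0.888).

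Markers of liver cell types were read beside the 4 diets in which miR-96 rose. With Phenobarbital, Benzophenone and Monuron none of the 3 hepatocyte, 5 stellate and mesenchymal, 3 leukocyte, 1 red cell or 1 endothelial miRNAs tested was called. With Benzophenone miR-122 differed by -0.29 and miR-192 by -0.38, neither of which passed (adjusted p = 0.0628 and 0.0608). With Diethylhexylphthalate the hepatocyte miRNA miR-122 fell by 0.34 (adjusted p = 0.0239) and miR-451, which is abundant in red cells, was lower by a log2 difference of -0.72 (adjusted p = 0.0427). The summed hepatocyte signal was 7336% to 11204% of the 75th percentile in control and 7349% to 8413% with Phenobarbital. It was 6085% to 8570% with Benzophenone, 6936% to 7434% with Diethylhexylphthalate and 8107% to 9923% with Monuron. The summed stellate and mesenchymal signal was 89.0% to 98.1% with Phenobarbital and 79.5% to 92.8% in control. Their part in the miR-96 result was not tested.

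The calls of both members were lost in an alternative that changed the background correction and the starting signal together. With normexp on the median spot signals (offset 50 units, more than the 16.7-unit floor), miR-96 differed by 0.83 with Phenobarbital (adjusted p = 0.359) and by 0.097 with Benzophenone (adjusted p = 0.829), and no difference of either member from control was called. In that setting 0 of the 129 miRNAs were called with Phenobarbital or Benzophenone. With Diethylhexylphthalate 2 were called higher, with Monuron 1 lower, and with Chlorendic Acid 1 higher and 6 lower. In the authors' deposited table, which uses the total gene signal, miR-96 was 1.36 to 1.42 with Phenobarbital and -0.89 to -0.15 in control on their log2 scale. A limma fit on the authors' deposited table gave 1.84 for miR-96 (adjusted p = 1.32e-09) and 2.66 for miR-182 (adjusted p = 1.24e-05).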

How the data were processed

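Per the file headers, the authors' scanner files are one-colour Agilent miRNA arrays read with Feature Extraction 10.5.1.1, and the deposited intensity used is the processed, background-subtracted signal of each spot. The authors' deposited table holds log2 values for 167 miRNAs, without miR-183. Set against the scanner files, 99.4% of its 6293 values matched the log2 total gene signal, within 0.01, once 1 constant was subtracted from each array. Column medians run from 0.0162 to 0.337, and the choice of constant is unknown.

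Spots flagged as outliers were left out, and the non-control spots of a probe were averaged. The floor is the 5th percentile of detected values after scaling. A miRNA is represented by its brightest probe and was tested if any probe was detected in every animal of at least 1 group. Groups were compared by limma 3.58.1 in R 4.3.3, in 1 fit over all 38 arrays and 129 miRNAs, with Benjamini-Hochberg adjustment within each comparison, or over all miRNAs and pairs for chemical against chemical. A call is an adjusted p under 0.05. Exact permutation tests are two-sided, and correlations used 100000 permutations within groups. The fit was tested on simulated data, drawn with no floor and with spread in every group, so that test does not cover values at the floor. miRNAs named are the 3 members, the 5 most alike to each by group means, and the listed families. The members and lists were chosen with earlier results of these data known. Animals with a shared replicate number do not deviate together: 0 of 8 diets had every pair over 0.1 with control, so the numbers were not used as pairs. Alternatives were the scaling, normexp correction (run on median signals), quantile normalization, the mean over probes, the total gene signal, the floor, the filter, the authors' table, slide and replicate blocks, 2-group fits and leaving out each array.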

Additional observations from a re-analysis of the deposited data

Results flagged for a closer look

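Dixon's test at the 95% level was applied to the levels of miR-96 and miR-182 in the 12 groups of 4 to 10 animals with any spread, and 2 results stood out, where chance gives about 1 group in 20. miR-96 in Chlorendic Acid replicate 4 was at -5.28, against -5.50 to -5.48 in the other 3 animals. It was the highest of its group and still below every control animal. miR-182 in Diethylthiourea replicate 2 was at -5.35, while the other 3 animals were at the floor of -5.50. It was the single animal of that group in which the probe was detected, and it also had the highest miR-96 level of the group, at -4.37. Both flags compare with values at or next to the floor, which have no spread of their own.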

How the results depend on the processing

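With normexp on median signals and an offset of 50 units, and in brackets with no offset (added after the data were seen), miR-96 differed by 0.83 (1.38) with Phenobarbital, 0.097 (0.23) with Benzophenone, -0.071 (-0.012) with Diethylhexylphthalate, 0.015 (0.075) with Monuron, -0.24 (-0.37) with Methapyrilene HCl and -0.57 (-0.90) with Chlorendic Acid. miR-182 differed by 0.58 (1.08) with Phenobarbital, -0.060 (-0.075) with Benzophenone, -0.16 (-0.21) with Diethylhexylphthalate and -0.072 (-0.17) with Monuron. The F statistic was 2.91 (3.54) for miR-96 and 1.30 (1.37) for miR-182, and the pairs called were 1 (2) and 0 (0). None of these differences or F tests passed, and the cause was not tested. With or without the offset, 0 of the 129 miRNAs were called with Phenobarbital or Benzophenone. miR-96 with 2-acetylaminofluorene was called with scaling over all probes (-0.43) and quantile normalization (-0.42). With Chlorendic Acid it was lost in the mean over probes (-0.32). miR-182 with Benzophenone was lost with the total gene signal (0.28) and in a fit of the 2 groups (0.58, adjusted p = 0.0874). With Diethylhexylphthalate it was lost with scaling over all probes (0.39), the total gene signal (0.20) and a fit of the 2 groups (0.36). With Monuron it was called with the lower floor (0.60) and on the authors' table (1.71). The total gene signal gave 7 pairs for miR-182. The correlation of the members was 0.45 with the lower floor, 0.31 with scaling over all probes, and 0.31 without the 2 arrays farthest from their group mean (added after the data were seen). It was 0.42 without the 2 arrays of most extreme miR-96 level, both fed Phenobarbital, which lie close to their group mean and cannot move it much.

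With the replicate number as a block, miR-182 with Diethylhexylphthalate was at 0.36 and did not pass (adjusted p = 0.0505), and no other call against control changed. Pairs of chemicals called were 19 for miR-96 and 11 for miR-182 with the block, in place of 20 and 12. The numbers do not pair the samples: same-numbered correlations with control ran from -0.39 to 0.49, and 8 of 33 animals correlated best with their own number.

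Leaving out 1 array at a time, miR-96 with Chlorendic Acid ran from -0.52 to -0.38 and miR-182 with Diethylhexylphthalate from 0.27 to 0.48. The other calls of both members against control kept their side of the threshold, with miR-96 at 1.96 to 2.09 for Phenobarbital. Restricting to miRNAs detected on all arrays leaves neither member, and the mean over probes puts miR-182 at the floor on all arrays, so neither gives a value. Values within a factor of about 2 of the floor carry more background error than brighter probes, and miR-183 has no value under any setting.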
